A study of Mus musculus with 6 samples.

Results

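The genes described here encode the main apolipoproteins made by the liver, Apoa1, Apoa2, Apoa4, Apoa5, Apob, Apoc1, Apoc2, Apoc3 and Apoe, together with Mttp, the microsomal triglyceride transfer protein that loads lipid onto apolipoprotein B. They were chosen by name, and all 10 were found among the 24421 gene rows of the deposited result table. Hepatic mRNA was sequenced from 6 mice on a C57BL/6 background, 3 labelled WT and 3 labelled PAI-1 heterozygous. The heterozygous mice carry 1 null allele, and the WT mice were littermate controls. Per the labels all 6 mice were 21 weeks old and fed ad libitum. Per the study's text, which gives a slightly lower age, they were male and ate the standard chow (SC) diet.

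The study asked whether lower PAI-1 alters hepatic genes of lipid metabolism. The values per mouse carried column headers that match no sample label and were not used here, so no difference between the genotypes was computed and the values below have no replicate error. What was read is the authors' mean of the normalised read count of each gene over all libraries, both genotypes together. It gives an estimate of the transcript level of each gene in these livers and of their order. The limits of annotation and gene length are given below.

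Apolipoproteins are the protein coat of lipoproteins, the particles that carry triglyceride and cholesterol in plasma. Apolipoprotein B is the single large structural protein of very low density lipoprotein (VLDL) and low density lipoprotein (LDL), and Mttp lipidates it in the endoplasmic reticulum of hepatocytes and enterocytes. The smaller apolipoproteins move between particles. Apoa1 and Apoa2 are the main proteins of high density lipoprotein (HDL), Apoe is the ligand for uptake of remnant particles by the liver, and the C apolipoproteins and Apoa5 control triglyceride hydrolysis by lipoprotein lipase.

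All 10 genes had a mean normalised read count above 10, as did 12971 of the 24421 rows, and 6743 rows stood at 0. Together they took 4.20% of all normalised counts, which summed to 30045982. The 3 with the highest counts, Apoe with 1.54%, Apoa1 with 0.837% and Apob with 0.614%, made up 2.99% of all counts, and Apoe alone gave 36.7% of the counts of the group. For scale, albumin (Alb), the most abundant plasma protein, took 7.17%.

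Since a long transcript gives more reads per molecule, levels of different genes are given per length. The level is the mean normalised count per kilobase of joined exons, scaled so that all genes with a known length sum to 1000000. On this scale the median of the 10 genes was 3540, against 8.63 for the rows with a mean count above 10. Of the 10 genes, 7 were among the top 100 genes by level and 3 held the ranks directly below albumin. The levels of the group spanned from 20729 for Apoa2 to 16.9 for Apoc2.

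**Figure D1:**
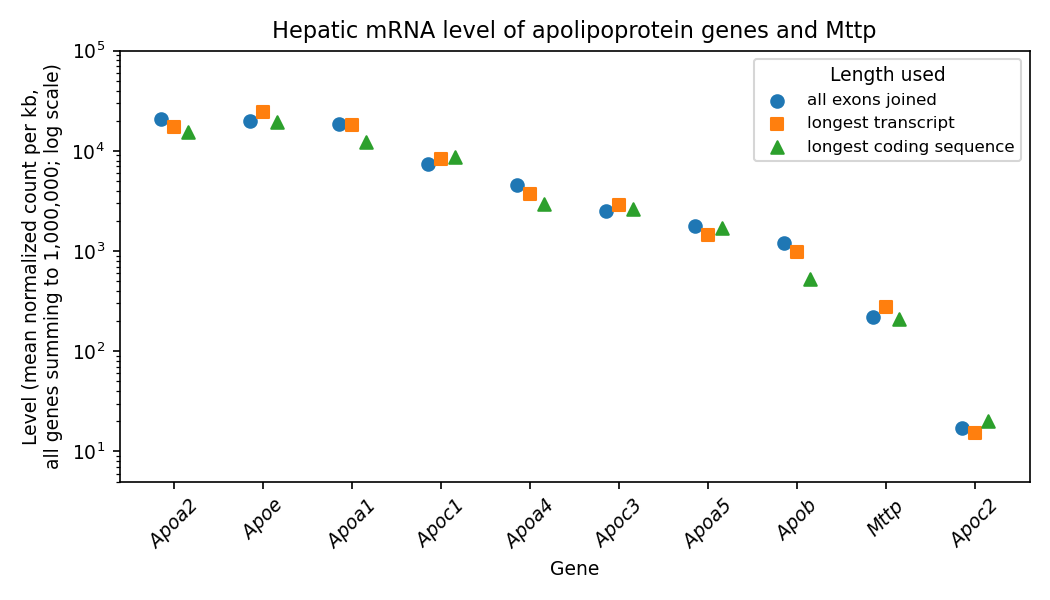
Level of each gene (vertical axis, log scale, mean normalised count per kilobase with all genes summing to 1000000; 1 pooled value over the 6 mice per point) for 3 definitions of gene length. Apoa2, Apoe and Apoa1 lie close together at the top and change places with the length used, whereas the order of the other 7 genes from Apoc1 down to Apoc2 is the same for all 3 lengths.

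**Figure D2:**
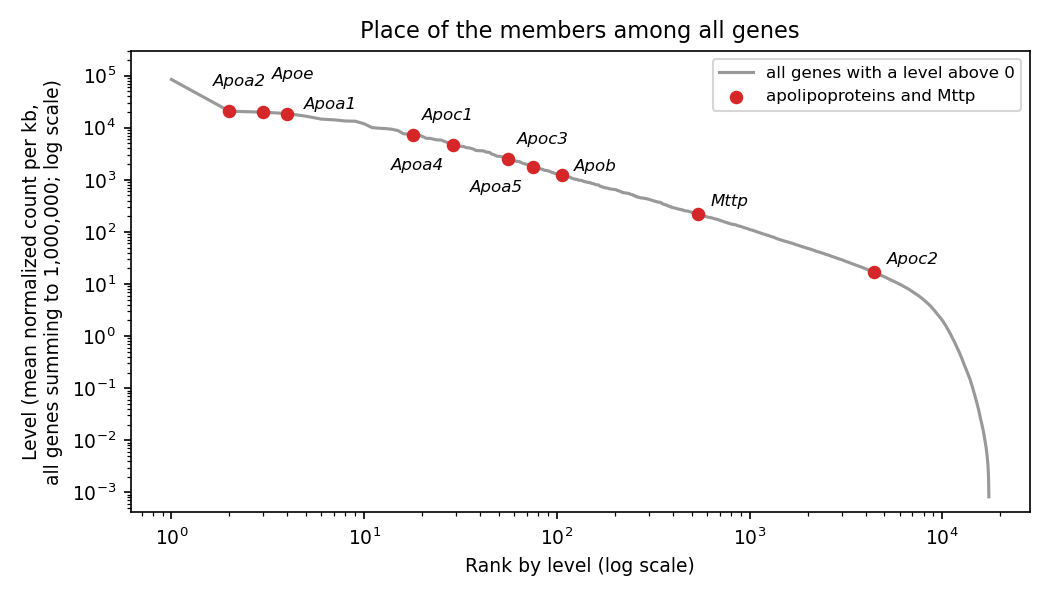
Level (vertical axis, log scale) of all genes with a level above 0 against their rank (horizontal axis, log scale), with the 10 genes as red points. The points run from rank 2 for Apoa2 to rank 106 for Apob, followed by Mttp at rank 542 and Apoc2 at rank 4417.

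Among the proteins of HDL, Apoa2 had the highest level of the group. Its mean normalised count of 121486 over only 537 exonic bases gave a level of 20729, rank 2 of all genes with albumin directly above it. Apoa1, which activates lecithin-cholesterol acyltransferase on HDL, had a mean count of 251501 and a level of 18644, rank 4, with the microRNA gene Mir6236 next below. The order of Apoa2, Apoe and Apoa1 was not fixed by these data. With the longest transcript as the length, Apoe led with 24451, ahead of Apoa1 with 18042 and Apoa2 with 17413. With the coding length it was again Apoe that led, with 19276, ahead of Apoa2 with 15399 and Apoa1 with 12317.

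Apoa4, an apolipoprotein of triglyceride-rich particles and HDL, reached a mean count of 90539 and a level of 4571, rank 29. It lay between Ambp (4667), the precursor of alpha-1-microglobulin, and Fgb (4444), the fibrinogen beta chain. With the coding length the level of Apoa4 was 2963. The level of Apoa1 was 4.08 times that of Apoa4, and 4.16 times with the coding length. The reading for Apoa4 is subject to a limit of annotation, since 1266 of its 1815 exonic bases lie opposite exons of Gm47528 and Gm10680 on the other strand. Whether the counting used strand is not given in the sources used here, so reads from Apoa4 and from these antisense genes cannot be told apart.

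Apoe had a mean count of 463683, the third highest of all genes, and a level of 19872, rank 3. Apoc1, which inhibits lipoprotein uptake and activates lecithin-cholesterol acyltransferase, had a mean count of 59470 and a level of 7324, rank 18, between Rbp4 (7513), the carrier of retinol in plasma, and Hp (7287), haptoglobin. The level of Apoe was 2.71 times that of its neighbour on the chromosome, Apoc1.

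Apoc3 and Apoa5, which regulate triglyceride hydrolysis, had lower levels than the members described so far, Apoc1 among them. Apoc3, an inhibitor of lipoprotein lipase and of remnant uptake, had a mean count of 27774 and a level of 2510, rank 56, between Cyp3a11 (2560), a drug-metabolising cytochrome, and Plg (2449), plasminogen. Apoa5, which promotes lipolysis, had a mean count of 48539 and a level of 1763, rank 75, between the retinol dehydrogenase Rdh7 (1772) and the glutathione transferase Gstm1 (1761). On the other strand, 524 of the 2522 exonic bases of Apoa5 lie opposite Gm47544.

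Apob and its loading partner stood apart from the small apolipoproteins. Apob had a mean count of 184392, the 14th highest of all genes by count. Its exons cover 13934 bases, and per kilobase its level was 1213, rank 106, between the bile acid-CoA ligase Slc27a5 (1218) and the immunoglobulin receptor Pigr (1200). With the coding length its level was 529. Mttp had a mean count of 14753 and a level of 218, rank 542, between Etnk2 (218), an ethanolamine kinase, and Slc25a15 (218), the mitochondrial ornithine carrier. The level of Apob was 5.57 times that of Mttp, and this ratio was 3.55 with the longest transcript and 2.52 with the coding length. The level of P4hb (1717), the protein disulfide isomerase that forms the other subunit of the transfer complex, was 7.88 times that of Mttp, or 5.03 and 6.49 times with the same other lengths. Of the exonic bases of Mttp, 457 of 6206 lie opposite the methyltransferase gene Trmt10a, whose mean count was 134, and 132 opposite Gm43691.

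Apob mRNA is known for editing by the deaminase Apobec1, which turns a CAA glutamine codon into a stop codon so that a short protein, apoB48, is made beside the full apoB100. In mouse, unlike human, this happens in liver as well as intestine. The edited codon, number 2179 of the 4505 codons counted from the start codon, was found in exon 26 of 29 at chr12:8008054-8008056 on the plus strand of GRCm38. The bases around it, chr12:8008045-8008074, are shown because they set the site where the 2 proteins part, with the edited codon in capitals.
Apob editing site: tacgcgataCAAtttgatcagtatattaaa
All 3 genes of the editing list had mean counts above 100. Apobec1 had a level of 14.8, its cofactor A1cf 39.6 and the cofactor Rbm47 36.9. The edited share of Apob mRNA was not measured by gene counts.

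Apoc2 was the lowest of the group by a wide margin. It encodes the cofactor that lipoprotein lipase requires, and its mean count was 150, a level of 16.9 and rank 4417, between Fbrs (16.9) and Akap8 (16.9). Its antagonist in lipolysis, Apoc3, was 148 times higher in level. Its direct neighbour Apoc4, a minor apolipoprotein whose gene ends just upstream of Apoc2, had a mean count of 14020 and a level of 506, 29.9 times that of Apoc2 (32.4 times with the longest transcript and 73.0 with the coding length).

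The Apoc2 value comes with a property of the gene models. A read-through gene that joins Apoc4 and Apoc2, named Gm44805 in GENCODE and listed in the table as Apoc4-apoc2, stood at a mean count of 0. All 765 exonic bases of the read-through gene are shared on the same strand, 646 with Apoc2 and 119 with Apoc4. Of the 813 exonic bases of Apoc2, 646 (79.5%) were thus shared, and 573 of its 739 distinct 75-base words (77.5%), the length of the reads, occur in the read-through transcripts too. Of the 2463 words of Apoc4, 47 occur in the read-through transcripts. Apoa1, Apoa2, Apob, Apoc1, Apoc3 and Apoe shared no exonic base with another gene and no 75-base word with the transcripts of one.

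The whole coding sequence of Apoc2, 291 of 291 bases in 3 exons between chr7:19671764 and chr7:19673601 on the minus strand of GRCm38, lies within exons of the read-through gene. It is printed because any read that falls within it matches both genes, with the start codon in capitals and the stop codon left out.
Apoc2 coding sequence: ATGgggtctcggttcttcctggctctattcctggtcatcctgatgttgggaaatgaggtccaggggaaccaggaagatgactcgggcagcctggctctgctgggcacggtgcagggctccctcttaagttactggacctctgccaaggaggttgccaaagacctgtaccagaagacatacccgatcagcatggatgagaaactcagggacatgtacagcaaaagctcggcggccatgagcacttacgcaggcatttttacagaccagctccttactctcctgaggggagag
Only 167 exonic bases of Apoc2 were free of the read-through gene. Were the whole mean count assigned to those 167 bases alone, the level would be 82.4. This is no upper bound, because the 167 bases are joined over 3 transcripts. In the transcript ENSMUST00000003074.15, 626 of 631 bases lie within exons of the read-through gene.

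The same feature was looked at across the table. Of 90 protein-coding genes that share at least 50% of their exonic bases on the same strand with another row, 32 (35.6%) had a mean count above 10 and 38 (42.2%) stood at 0. Of the 19768 that share none, 11976 (60.6%) were above 10 and 4336 (21.9%) at 0. The 90 include Apoc2, above 10, and the read-through gene Apoc4-apoc2, at 0. The table held 9 rows whose names join the names of 2 of its other rows, as Apoc4-apoc2 does, and 7 of them were at 0. How the counting treated reads that fall in 2 genes is not given in the sources used here. The part of the shared exons in the low Apoc2 count was not tested, also not by these shares. The level of Apoc2 is uncertain for that reason.

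The positions of the genes fall into 2 clusters and 3 single sites. On chromosome 9, Apoa1, Apoc3, Apoa4 and Apoa5 lie within 43.3 kb, chr9:46228580-46271919, with Apoc3 on the minus strand and the others on the plus strand. On chromosome 7, Apoe, Apoc1, Apoc4 and Apoc2 lie in this order within 27.6 kb, chr7:19671579-19699188, all on the minus strand. Apoa2 lies at chr1:171225054-171226379, Apob at chr12:7977648-8016835 and Mttp at chr3:138089854-138144968. Neighbours within a cluster had unlike levels. On chromosome 9 the level of Apoa1 was 7.43 times that of Apoc3, whose gene ends 4.35 kb from the Apoa1 start, and 4.70 times with the coding length. On chromosome 7 the level fell in gene order from Apoe over Apoc1 to Apoc4. Apoc2, next in order, had the lowest level, but that level is uncertain because of its shared exons.

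**Figure D3:**
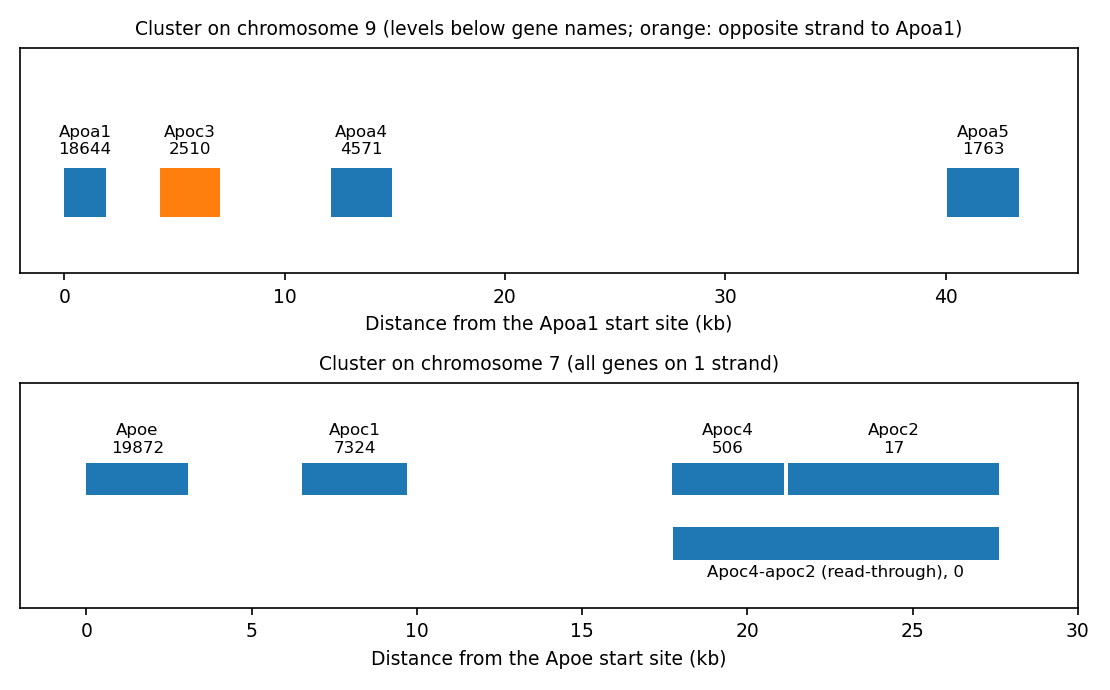
Gene spans in the clusters on chromosome 9 (upper panel) and chromosome 7 (lower panel) as distance in kilobases from the start of Apoa1 or Apoe in the direction of its transcription, with the pooled level of each gene printed above its bar. The read-through gene (level 0) covers nearly the whole span of Apoc4 and Apoc2, the pair with the lowest levels in the cluster. The level of Apoc2 is uncertain because most of its exonic bases are shared with the read-through gene.

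In gene structure the small apolipoproteins were alike. The transcript with the longest coding sequence had 4 exons in Apoa1, Apoa2, Apoa5, Apoc3 and Apoe, 3 exons in Apoa4 and Apoc1 and 5 exons in Apoc2, with coding lengths from 264 bases in Apoc1 to 1185 in Apoa4. Mttp had 20 exons and 2727 coding bases, and Apob 29 exons and 13515 coding bases.

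Promoter windows from 250 bases before to 50 bases after the start were held by the RefSeq table (GRCm38.p6) for 8 of the 10 genes. The core promoter motif TATAAA occurred on either strand in 3 of the 8, Apoa2, Apoa5 and Apob, while 13.6% of all 32851 promoter windows hold them. The GC box GGGCGG occurred in 1 of the 8 (Mttp) against 35.7% of all windows, and CCAAT in 1 (Apoa2) against 37.4%. The RefSeq start behind the Mttp window lies 1550 bases from the start of the Mttp gene model used for its position and length. This distance was 148 bases for Apoa4, 50 for Apoa1 and 29 for Apob, and 0 for Apoa2, Apoa5, Apoc2 and Apoe. The half-site AGGTCA was found in Apoc2 alone (16.3% of all windows) and the C/EBP element TTGCNNAA in Apob alone (10.8%). With 8 windows these counts describe the letters present and no more. Of the 3 genes with TATAAA, Apoa5 and Apob are shown with the 100 bases before the RefSeq start. The motif is in capitals, to place it relative to the start. Its position in the Apoa2 window is not given here. The Apoa5 stretch is chr9:46268533-46268632 and the Apob stretch chr12:7977577-7977676, both on the plus strand.
Apoa5 promoter: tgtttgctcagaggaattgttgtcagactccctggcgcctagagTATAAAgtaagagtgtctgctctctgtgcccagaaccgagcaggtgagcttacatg
Apob promoter: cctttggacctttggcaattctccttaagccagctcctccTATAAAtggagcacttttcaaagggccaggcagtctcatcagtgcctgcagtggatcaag
For Apob the motif begins 60 bases before the RefSeq start and 31 before the GENCODE start, which lies upstream of it, and for Apoa5 it begins 56 bases before the start that both annotations share.

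Other genes of the pathway were read from 7 lists of 75 genes, of which 72 had a mean count of at least 10 and 68 of at least 100. Of all 24421 rows, 12971 had a mean count above 10, and the share of all rows at 100 or more was not computed. The median level of the 75 genes was 61.5, against 3540 for the 10 genes described above. Among 15 minor apolipoproteins and related genes, 13 reached a count of 10. Apoh, beta-2-glycoprotein I, was highest with 3607, and Clu (1425), clusterin, and Apof (1235), an inhibitor of cholesteryl ester transfer, lay between Apoa5 and Apob in level. Apom, which carries sphingosine-1-phosphate on HDL, had a level of 565, and Apod and Apol6 were near 0 with levels of 0.108 and 0.0355.

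All 17 genes of assembly and secretion of apoB particles had a mean count of at least 100, with a median level of 156. Below P4hb stood the chaperone Hsp90b1 (660), the lipid droplet protein Cideb (390), which takes part in VLDL lipidation, and the disulfide isomerase Pdia3 (373). Of the genes for the COPII coat and its cargo receptors, which carry VLDL precursors out of the endoplasmic reticulum, Sar1b had 349 and its paralogue Sar1a 71.8. The receptor Surf4 had 249. Tm6sf2, which promotes the lipidation of VLDL, had 48.0, and the sorting receptor Sort1 was lowest with 8.21.

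Of the 7 genes of HDL formation and remodelling all had a mean count of at least 100. Lcat, the enzyme that Apoa1 activates, led with a level of 980, followed by the hepatic lipase Lipc (142), the HDL receptor Scarb1 (78.5), the phospholipid transfer protein Pltp (61.5) and the cholesterol exporter Abca1 (43.2). Among 9 receptor genes, the heparan sulfate proteoglycan Sdc1 (206), the lipolysis-stimulated receptor Lsr (190) and Lrp1 (107) had the highest levels, while Vldlr (0.656) and Lrp8 (0.0175) were lowest. Among 6 genes of lipolysis, all with a mean count of at least 100, the lipase inhibitor Angptl4 (110) stood above the lipase gene Lpl itself (4.74).

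Of 18 transcription factors known to act on apolipoprotein genes, 17 had a mean count of at least 100. Hnf4a, the main activator of hepatic apolipoprotein genes, had the highest level (462), followed by Cebpa (336), Creb3l3 (334), Ppara (233) and the bile acid receptor Nr1h4 (224). Nr2f1 was lowest with 0.327, while the related Nr2f2 had 17.1.

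**Figure D4:**
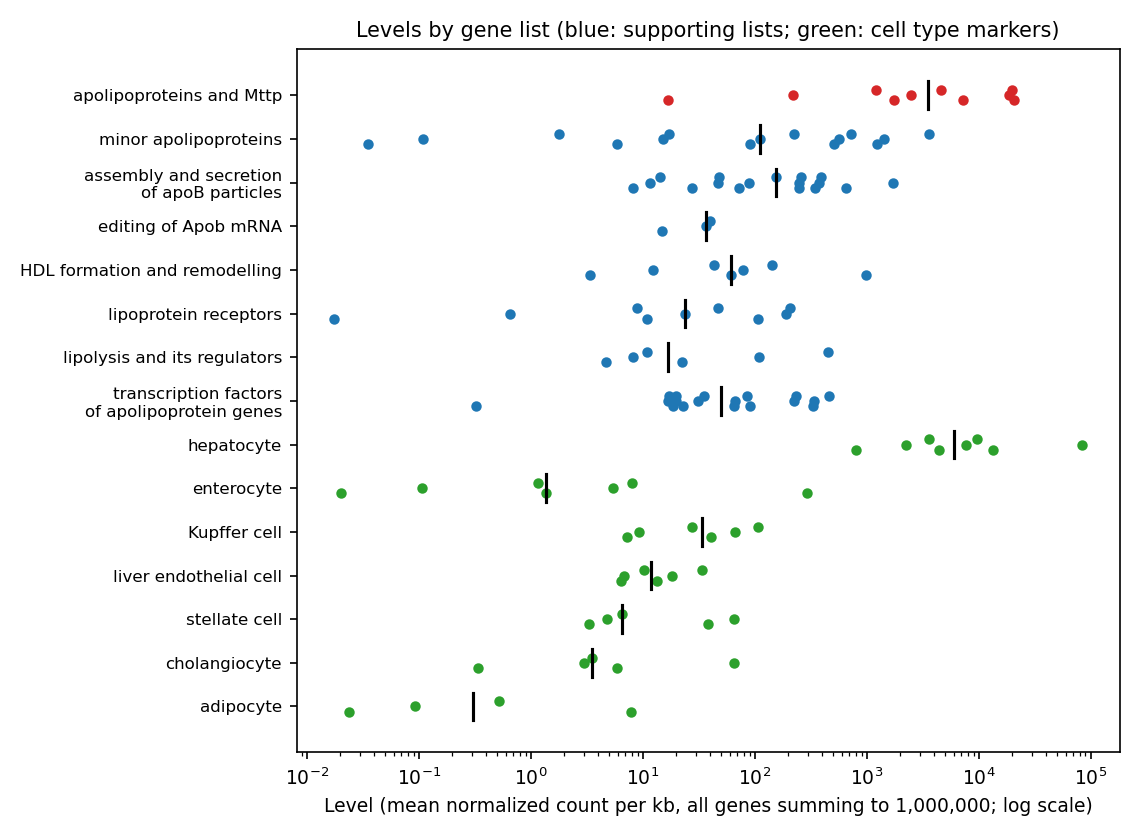
Level of each gene (horizontal axis, log scale, pooled over the 6 mice) in the 10 genes described here (red), the 7 supporting lists (blue) and the cell type marker lists (green), with a black bar at the median of each list. The median of the 10 genes (3540) lies near that of the hepatocyte markers (6047), and those of the 7 supporting lists lie between 16.7 and 156.

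The label of the tissue was checked against cell type markers. All 8 hepatocyte markers had a mean count of at least 10, with a median level of 6047. Several of the genes described here are also made by enterocytes. Of 7 enterocyte markers, 5 reached a count of 10. The summed level of the 7 was 307, of which 290 came from Fabp2, a fatty acid binding protein. Of the others, Treh had 8.11, Alpi 5.43, Slc5a1 1.36 and Vil1 1.16, and Sis and Lct were lowest with 0.107 and 0.0203. The summed level was 259 for 6 Kupffer cell markers, 89.1 for 6 endothelial, 118 for 5 stellate cell and 77.9 for 5 cholangiocyte markers, against 76859 for the 10 genes. Adipocyte markers summed to 8.51, with 1 of 4 at a count of 10 or above. In bulk tissue, fewer cells of a type and less RNA per cell cannot be told apart.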

How the data were processed

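Libraries of liver mRNA (KAPA mRNA HyperPrep) were sequenced by the authors with 75-base single-end reads, aligned to mm10 with STAR and analysed with DESeq2 in the RNA Express application. The submitters' processing notes also name HOMER. Versions, annotation, strand setting and the treatment of reads in 2 genes are not given in the sources used here. The signal deposited by the authors and used here is the average of size-factor-normalised counts taken across the libraries, so it has no SD. The same table holds log2 fold changes, standard errors, Wald statistics and p-values of the authors' own comparison, which were not used. The 6 per-sample columns of the count table are headed by numbers that match no label and were not used, so depth per mouse is not given and the planned edgeR test of genotype was not run.

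Levels were computed in Python 3.11.15 with NumPy 2.4.6 and pandas 2.3.3 from GENCODE M21 exon lengths (GRCm38, the mm10 assembly), for 23976 of 24421 rows (23334 matched by symbol and 642 through a RefSeq synonym) that hold 99.6% of the counts. The level calculation was run on simulated counts drawn with the same gene lengths. That run checks the arithmetic only, not the annotation, reads shared between genes or coverage along transcripts. The annotation behind the deposited rows may differ from GENCODE. Genes named are the 10 members, their neighbours in level and within a cluster, the supporting lists and the markers, and some genes of these lists and the targeted gene are not reported here. The genes in the overlaps with members, and the rows named for a pair of genes, were chosen after values were seen. The members and lists were chosen with earlier results of these data known. Alternatives were another gene length, another total, ranks without length and a count of 100 in place of 10 for detection.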

Additional observations from a re-analysis of the deposited data

How the results depend on the processing

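The summed level of the 10 genes, 76859, became 77526 with the longest transcript, 63778 with the coding length and 76925 when scaled to genes with a mean count above 10. Their share of counts, 4.20%, became 5.05% without the 10 highest genes in the total. Under another length the level of a single gene was 0.436 to 1.27 times the reported one, and 3 genes, Apob, Apoa4 and Apoa1, moved by more than 1.5 times, all with the coding length. With the total of genes above a count of 10 no level moved by more than 0.0848%. The number of genes in the top 100 stayed at 7 with the longest transcript and by count without length. Of 20 ranks under these alternatives, 12 were within 1.5 times. In all, 68 of 75 supporting genes had a count of at least 100.

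The genotype test and its alternatives (edgeR with DESeq2 size factors, DESeq2, no filter, leaving out each mouse, the replicate block) were not run. No paired analysis was possible because the columns of the count table carry no replicate number and match no label. The pooled means allow no statement on spread between mice. Levels per length assume even coverage along transcripts, which was not measured.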
